A study of Mus musculus with 11 samples.

Results

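The metallothionein genes Mt1, Mt2 and Mt3 were followed across the 3 genotype groups of a mouse lumbar spinal cord study. They were taken by name as 3 of the 20888 gene rows of the table, and all 3 passed the filter on low values that left 14347 genes for testing. Mt1 and Mt2 were higher in MFN2-R94Q mice than in nontransgenic mice, by 1.74-fold and 1.86-fold in the fit over all genes. Without 1 library, MFN2-R94Q replicate 2, these rises were 1.43-fold and 1.51-fold. Mt3 was lower, at 0.915 of the nontransgenic level, a small fall that passed the threshold in 11 of 20 alternative settings. In mice that carried MFN1 as well, the mean levels of Mt1 and Mt2 lay between those of the other groups.

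Metallothioneins are small, cysteine-rich proteins that bind zinc and copper ions and buffer them inside cells. Mt1 and Mt2 are inducible genes: metal ions act on them through the zinc-sensing transcription factor MTF1, and glucocorticoids and inflammatory cytokines also raise them. In the central nervous system Mt1 and Mt2 are best known from astrocytes, where they rise after injury. Mt3, also called growth inhibitory factor, is enriched in the nervous system and responds little to the classical inducers.

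The mice were C57BL/6, 10 months old, and the RNA came from the lumbar part of the spinal cord. Poly(A) RNA was sequenced from 3 nontransgenic mice (nTg), 3 mice labelled MFN2-R94Q and 5 mice labelled MFN2-R94Q:MFN1. MFN2 and MFN1 are the mitofusins, which fuse mitochondrial outer membranes, and R94Q is a mutant form of MFN2 found in Charcot-Marie-Tooth disease type 2A, in which peripheral axons degenerate. All mice of the MFN2-R94Q:MFN1 group therefore carry the mutant too, and no group carries MFN1 without it. No group is labelled as carrying a nonmutant MFN2 transgene, so the mutation and the carrying of a transgene cannot be told apart. The promoter and species of each transgene, and the sex of the mice, were not given in the sources used here.

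The values are RPKM, read counts divided by transcript length and by depth. The lengths used were not given in the sources used here, and comparisons of level between genes depend on them. The steps of the low values gave depths of 30.6 to 71.8 M reads. The rows Mfn2 and Mfn1 did not check the labels. Mfn2 stood at 45.9 ± 1.24 RPKM in nTg, 46.3 ± 1.39 in MFN2-R94Q and 45.2 ± 1.56 in MFN2-R94Q:MFN1 (SD), and Mfn1 at 24.9 ± 0.675, 26.3 ± 0.419 and 24.96 ± 0.552. Genotypes are therefore those of the labels throughout. MFN2-R94Q replicate 2 lay farthest from its group over all genes, with a median absolute log2 deviation of 0.107 against at most 0.059 in every nTg and MFN2-R94Q:MFN1 library. MFN2-R94Q replicate 1 had 0.091 and replicate 3 0.062. The metallothionein results and the list counts that change without replicate 2 are given with and without it.

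The 3 genes lie in a cluster on the + strand of chromosome 8 (GRCm38, GENCODE M21). Mt3 spans 94152607 to 94154146, Mt2 94172664 to 94173568 and Mt1 94179082 to 94180327, together 27.7 kb, and each main transcript has 3 exons. Mt4, the remaining gene of the cluster, lies 13.6 kb before Mt3 and is not among the 3 genes followed here. It was listed with the neighbours of the cluster, and no values of it are given. The main transcripts of 549 (Mt1), 511 (Mt2) and 536 bases (Mt3) share no 50-base stretch in any pair. Of the 525 windows of 25 bases in Mt1, 3 occur in Mt3 and 0 in Mt2.

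The 250 bases before each gene's start in RefSeq (GRCm38.p6) are shown because Mt1 and Mt2 moved together and Mt3 did not. They are written 5′ to 3′ on the + strand, with capitals at matches to the core of the metal response element, the binding site of MTF1 (TGCACNC or TGCGCNC, either strand). The windows are chr8:94178839-94179088 for Mt1, chr8:94172368-94172617 for Mt2 and chr8:94152357-94152606 for Mt3.
Mt1: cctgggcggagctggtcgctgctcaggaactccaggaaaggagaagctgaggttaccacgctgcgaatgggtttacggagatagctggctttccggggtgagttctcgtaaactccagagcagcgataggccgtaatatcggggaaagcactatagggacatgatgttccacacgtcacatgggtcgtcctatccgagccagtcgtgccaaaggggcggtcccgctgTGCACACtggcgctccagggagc
Mt2: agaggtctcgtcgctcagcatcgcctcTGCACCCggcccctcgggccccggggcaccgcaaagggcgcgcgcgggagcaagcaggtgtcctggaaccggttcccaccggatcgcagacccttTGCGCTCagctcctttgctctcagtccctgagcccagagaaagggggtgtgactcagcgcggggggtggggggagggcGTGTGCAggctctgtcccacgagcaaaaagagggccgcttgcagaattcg
Mt3: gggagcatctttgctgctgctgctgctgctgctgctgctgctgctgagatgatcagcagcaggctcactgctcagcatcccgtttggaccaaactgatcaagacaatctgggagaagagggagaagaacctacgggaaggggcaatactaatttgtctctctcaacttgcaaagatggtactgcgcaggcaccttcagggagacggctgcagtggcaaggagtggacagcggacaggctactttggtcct
The Mt1 window held 1 core, 23 to 17 bases before the start. The Mt2 window held 3 cores, at 223 to 217, 128 to 122 and 50 to 44 bases before the start, and the core nearest the start reads on the minus strand. None of the 250 bases of Mt3 matched. Of 32851 mouse windows of this length, 21.4% held at least 1 core and 1.26% held at least 3. The Mt2 window also held 1 antioxidant response element (TGACNNNGC), 79 to 71 bases before the start, present in 10.2% of windows, and the Mt1 window held 2 GC boxes (GGGCGG), which 16.7% of windows hold. No match overlapped another. The glucocorticoid receptor hexamer AGAACA and the STAT site TTCNNNGAA were in none of the 3 windows, and in 16.1% and 7.02% of all. These are letter matches only. GENCODE places further starts up to 152 bases (Mt1), 242 bases (Mt2) and 139 bases (Mt3) downstream of the start used, and that stretch was not searched. The bases just before those starts lie outside the windows, so the counts above are not the number of cores in each promoter.

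By RPKM, Mt1 was the highest of the 3 in nontransgenic cord. Its levels there were 293, 315 and 294 RPKM in replicates 1 to 3, which ranks it 87th of 20888 genes by mean. In MFN2-R94Q it was at 388, 779 and 477 RPKM, and in MFN2-R94Q:MFN1 at 376, 345, 366, 344 and 389 RPKM. Every library with a transgene stood above every nTg library, and MFN2-R94Q replicate 2 stood far above the rest. Mt2 was at 197, 222 and 154 RPKM in nTg, at 267, 530 and 306 RPKM in MFN2-R94Q, and at 266, 219, 255, 241 and 259 RPKM in MFN2-R94Q:MFN1. For Mt2 the MFN2-R94Q libraries overlapped with neither other group, although the lowest of them and the highest MFN2-R94Q:MFN1 library were nearly level. MFN2-R94Q:MFN1 replicate 2 lay within the nTg range.

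Mt3 spread far less between libraries. It was at 265, 270.0 and 268 RPKM in nTg, at 238, 247 and 249 RPKM in MFN2-R94Q, and at 271, 258, 247, 258 and 269 RPKM in MFN2-R94Q:MFN1. All 3 MFN2-R94Q libraries lay below the nTg libraries, and the MFN2-R94Q:MFN1 libraries overlapped with both groups. With the recovered depth and the annotated transcript lengths, the 3 genes rested on about 2719 to 17886 reads per library, for which counting alone gives an error of at most 1.92%. The spread between mice of 1 genotype was wider than this for Mt1 and Mt2 in every group.

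**Figure D1:**
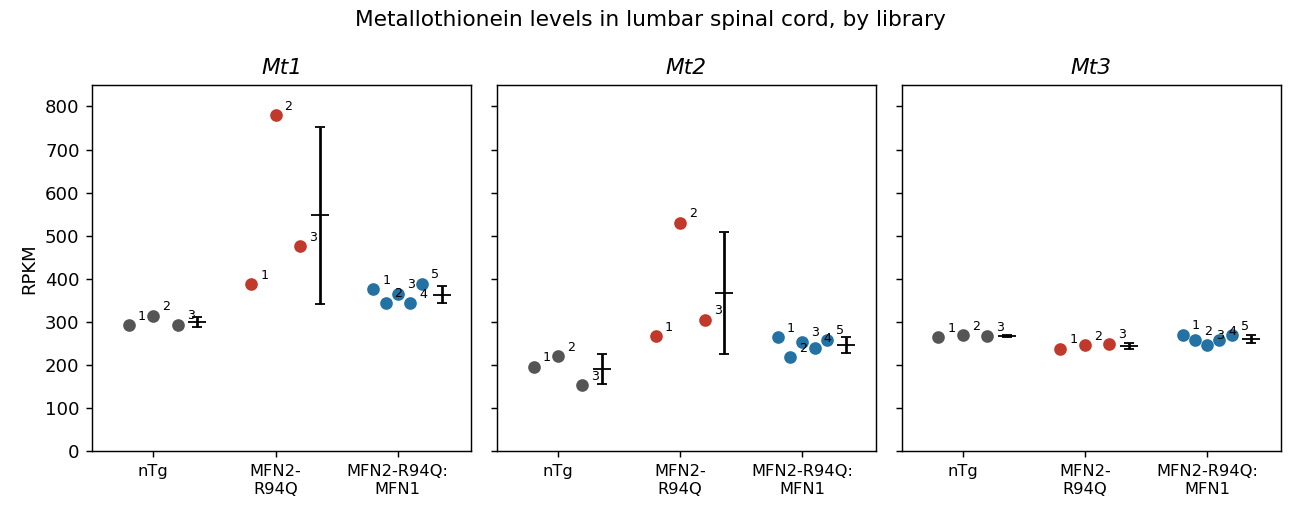
RPKM (vertical axes, from 0) of Mt1, Mt2 and Mt3 by genotype group; each point is 1 library with its replicate number, and bars give the mean ± SD. MFN2-R94Q replicate 2 is the highest library for Mt1 (779 RPKM) and Mt2 (530 RPKM), while Mt3 stays between 238 and 271 RPKM.

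In MFN2-R94Q against nTg all 3 genes passed an adjusted p of 0.05, as did 17.9% of all tested genes (7.5% higher and 10.4% lower). Mt1 averaged 548 ± 205 RPKM (SD, n = 3) against 301 ± 12.3 (n = 3). The fitted rise was 1.74-fold (95% interval 1.35 to 2.26), a log2 change of 0.80 with a standard error of 0.17 (adjusted p = 0.0094, limma). Mt2 averaged 368 ± 142 against 191 ± 34.2 RPKM and rose 1.86-fold (1.38 to 2.496, adjusted p = 0.010, limma). Only 38 of the 14347 genes had a larger log2 change than Mt1, and 27 a larger one than Mt2. All 3 members had groups without overlap, as did 35.7% of tested genes (16.6% with MFN2-R94Q higher and 19.1% with it lower).

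Mt3 averaged 245 ± 5.98 RPKM in MFN2-R94Q against 267 ± 2.54 in nTg. It fell to 0.915 of the nTg level (0.865 to 0.968, adjusted p = 0.033, limma). The size was small beside the rises of Mt1 and Mt2, and 2926 genes had a more negative log2 change. After quantile normalization the log2 change of Mt3 was -0.08 in place of -0.13 and no longer passed (adjusted p = 0.18, limma).

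Without MFN2-R94Q replicate 2 the rises of Mt1 and Mt2 were smaller but still passed, at 1.43-fold (adjusted p = 0.0020, limma) and 1.51-fold (adjusted p = 0.0094, limma). The value of Mt3 was 0.911 (adjusted p = 0.054, limma). The fit shares 1 spread per gene over the 3 groups; with only the 2 groups compared, the adjusted p was 0.057, 0.058 and 0.060 for Mt1, Mt2 and Mt3 (limma). In bulk tissue, fewer cells of a type and less RNA per cell cannot be told apart.

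The comparison of MFN2-R94Q:MFN1 with MFN2-R94Q asks what added MFN1 changes in mice with the mutant. In it 1 of the 3 members passed, where 12.9% of all tested genes did (9.55% higher and 3.33% lower). Mt1 fell to 0.694 of its MFN2-R94Q level (0.551 to 0.874, adjusted p = 0.042, limma), from 548 ± 205 (n = 3) to 364 ± 19.3 RPKM (n = 5), and the groups overlapped. For Mt2 the ratio was 0.705 (0.541 to 0.918), which did not pass (adjusted p = 0.077, limma). Of the 3 members only Mt2 had groups without overlap, as did 20.1% of tested genes (13.1% higher and 7.05% lower). Mt3 was 1.06 times its MFN2-R94Q level (1.01 to 1.12, adjusted p = 0.091, limma), with overlap. In this comparison 60 genes had a more negative log2 change than Mt1 and 66 a more negative one than Mt2.

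These sizes were smaller without MFN2-R94Q replicate 2. Mt1 was then at 0.846 (adjusted p = 0.059, limma) and Mt2 at 0.866 (adjusted p = 0.30, limma) of the MFN2-R94Q level. The call for Mt1 was also lost without each of the nTg libraries, which are in neither group, and without any of the 5 MFN2-R94Q:MFN1 libraries (adjusted p 0.053 to 0.084, limma).

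In MFN2-R94Q:MFN1 against nTg none of the 3 genes passed, where 2.31% of all tested genes did (2.09% higher and 0.223% lower). Counted by overlap, 1 of the 3 had separate groups, as did 14.1% of tested genes (9.03% higher and 5.05% lower). Mt1 was 1.21 times the nTg level (0.960 to 1.52, adjusted p = 0.43, limma) and higher in 5 of 5 libraries than in any nTg library. Mt2 averaged 248 ± 18.7 RPKM and was 1.31 times the nTg level (1.01 to 1.71, adjusted p = 0.31, limma), with overlap. Mt3 averaged 261 ± 9.62 RPKM, 0.974 times the nTg level (0.927 to 1.02, adjusted p = 0.64, limma). When MFN2-R94Q replicate 2, which is not in this comparison but widens the shared spread, was left out, Mt1 (adjusted p = 0.022, limma) and Mt2 (adjusted p = 0.041, limma) passed at the same sizes. They also passed with only these 2 groups in the fit (adjusted p = 0.0047 and 0.047, limma). The 3 comparisons share libraries, since each group enters 2 of them, so their values for a gene are not independent of each other.

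**Figure D2:**
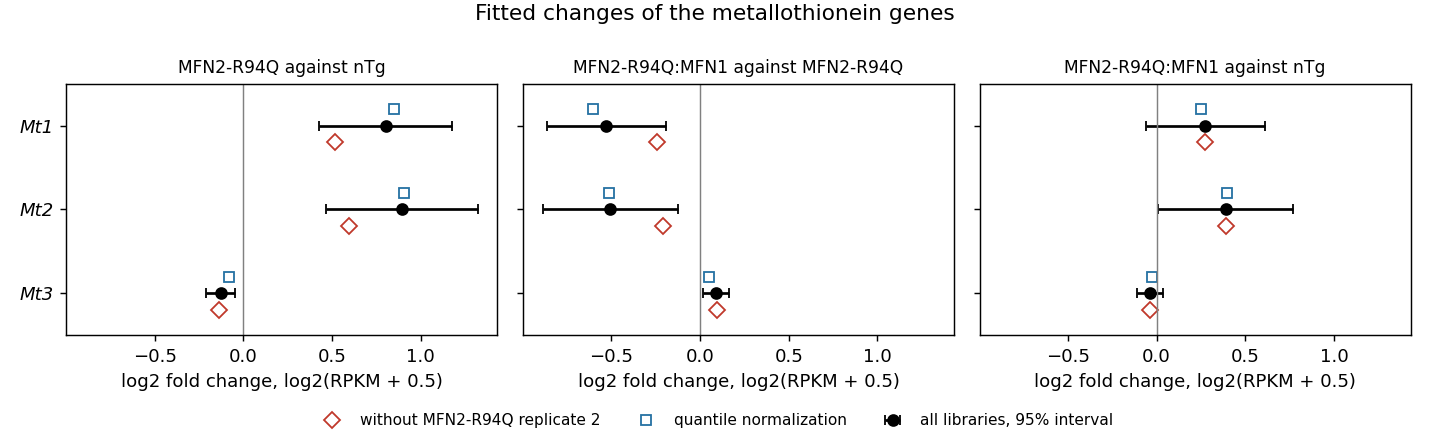
Log2 fold change of Mt1, Mt2 and Mt3 on the log2(RPKM + 0.5) scale (horizontal axes) in the 3 comparisons; black points with 95% intervals are from all libraries, red diamonds leave out MFN2-R94Q replicate 2 and blue squares follow quantile normalization. In MFN2-R94Q against nTg, Mt1 moves from 0.80 to 0.52 and Mt2 from 0.89 to 0.60 without that library.

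The order of the 3 genes by RPKM differed between groups. Order and shares depend on the lengths used in the RPKM, which are not known. All annotated exons together cover 1246 bases in Mt1, 588 in Mt2 and 1066 in Mt3, against 549, 511 and 536 in the main transcripts. Differences between groups in the ratio between genes do not depend on these lengths. Mt1 came before Mt3 and Mt3 before Mt2 in 3 of 3 nTg libraries, whereas Mt2 stood above Mt3 in 3 of 3 MFN2-R94Q libraries. In MFN2-R94Q:MFN1 the nTg order was found in 4 of 5 libraries, and replicate 3 had Mt2 above Mt3. The summed level of the 3 genes was 759 ± 45.6 RPKM in nTg, 1160 ± 350 in MFN2-R94Q and 872 ± 41.8 in MFN2-R94Q:MFN1. Mt3 made up 35.3 ± 1.98% of that sum in nTg, 22.2 ± 5.66% in MFN2-R94Q and 29.9 ± 1.13% in MFN2-R94Q:MFN1.

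The log2 ratio of Mt2 to Mt1 averaged -0.67 ± 0.23 in nTg, -0.58 ± 0.05 in MFN2-R94Q and -0.56 ± 0.07 in MFN2-R94Q:MFN1 (SD). The lowest ratio, -0.93, came from nTg replicate 3, and the other 10 libraries lay between -0.66 and -0.50. None of the 3 differences, at most 0.11, passed an exact permutation test (two-sided p = 0.34 to 0.80, adjusted over 6 ratio tests p = 0.51 to 0.80). The exact permutation test of MFN2-R94Q against nTg could not have passed, since 3 against 3 cannot go below p = 0.10.

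Mt3 was set against the other pair in the same way, from the values already tested gene by gene. Its log2 ratio to the geometric mean of Mt1 and Mt2 was 0.14, 0.03 and 0.33 in nTg, -0.43, -1.38 and -0.61 in MFN2-R94Q, and -0.22, -0.09, -0.30, -0.16 and -0.24 in MFN2-R94Q:MFN1. No group overlapped with another, and MFN2-R94Q:MFN1 lay between the others. The difference of MFN2-R94Q from nTg was -0.98, with an exact two-sided permutation p = 0.10, the smallest that 3 against 3 allows (adjusted p = 0.20). MFN2-R94Q:MFN1 differed from MFN2-R94Q by 0.61 and from nTg by -0.37, each with an exact permutation p = 0.018, the smallest possible there (adjusted p = 0.054). The difference of MFN2-R94Q:MFN1 from MFN2-R94Q was 0.32, and that of MFN2-R94Q from nTg -0.69, without MFN2-R94Q replicate 2. No ratio difference passed 0.05 after adjustment.

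**Figure D3:**
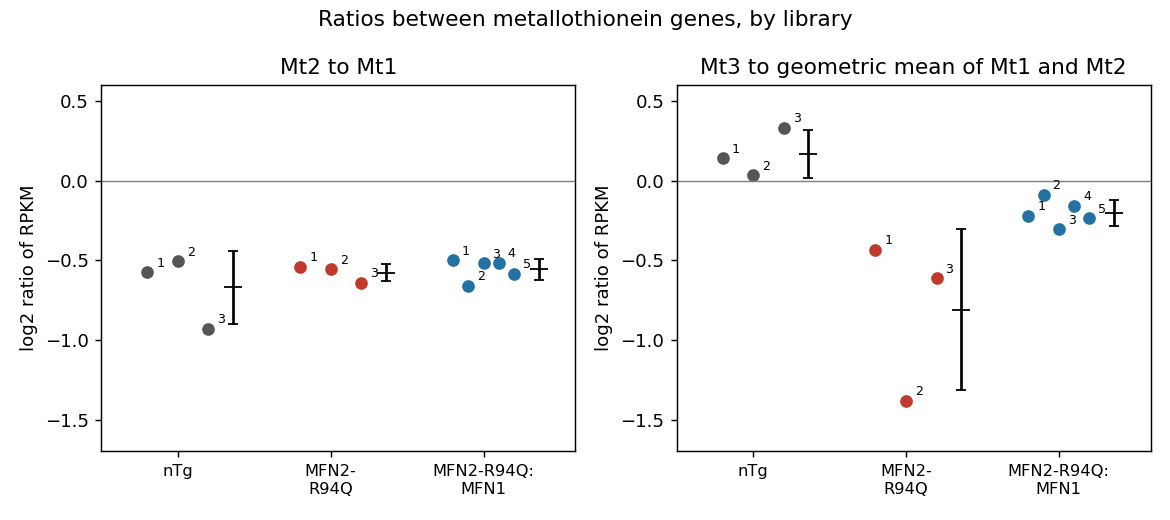
Log2 ratio of RPKM per library (vertical axes) for Mt2 to Mt1 (left) and Mt3 to the geometric mean of Mt1 and Mt2 (right); points are libraries with replicate numbers, bars the mean ± SD. On the right the groups do not overlap: all nTg libraries are above 0 and all others below it.

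Across the 11 libraries Mt1 and Mt2 had a Pearson r of 0.96 (permutation p = 1e-05, the smallest that 100000 permutations can give, adjusted over 3 pairs p = 3e-05) and a Spearman rho of 0.94 (permutation p = 0.0001, adjusted p = 0.0003). Without the 2 libraries farthest from the median of Mt1, MFN2-R94Q replicates 2 and 3, r was 0.89, and for deviations from the group means it was 0.91. No relation of Mt3 passed: r was -0.52 with Mt1 (permutation p = 0.086, adjusted p = 0.091) and -0.52 with Mt2 (permutation p = 0.091, adjusted p = 0.091). Its rho was -0.44 and -0.45 (permutation p = 0.18 and 0.17, adjusted p = 0.18 for both). Its r with Mt1 was -0.42 without the same 2 libraries. With Mt2 it was also -0.42 without the 2 farthest from the median of Mt2, nTg replicate 3 and MFN2-R94Q replicate 2. Within groups the sign turned, with r of 0.34 and 0.27 for deviations from the group means. The permutations shuffled all 11 libraries without regard to group, so these p-values also take in differences between groups.

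Among 11910 genes, those whose pattern over the 11 libraries was most like Mt1 by Pearson r were Glul (0.99), the glutamine synthetase of astrocytes, Sdc4 (0.98), a cell-surface heparan sulfate proteoglycan, Pcolce2 (0.98), Phactr4 (0.98) and Thbs3 (0.98). Without MFN2-R94Q replicate 2 these stood between 0.92 and 0.97. For Mt2 they were Nln (0.97), which encodes the peptidase neurolysin, Sdc4 (0.97), Ston1 (0.97), Thbs3 (0.97) and Ankrd13a (0.97). Mt1 itself ranked 6 in the order for Mt2, and Mt2 ranked 23 in the order for Mt1. All libraries share group differences and MFN2-R94Q replicate 2, so such values describe these 11 libraries only.

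Sdc4, which both lists hold, was at 36.9, 39.0 and 35.95 RPKM in nTg, at 45.2, 62.0 and 49.0 in MFN2-R94Q, and at 44.5, 40.7, 44.0, 39.5 and 43.7 in MFN2-R94Q:MFN1. As for Mt1, every transgenic library stood above nTg and MFN2-R94Q replicate 2 stood highest. The genes most like Mt3 were Mettl3 (0.96), which encodes the RNA adenosine methyltransferase, Fzd9 (0.96), a Wnt receptor, Orai1 (0.94), a calcium channel subunit, Suv420h2 (0.93), a histone methyltransferase, and Abcf1 (0.92). Of these, Mettl3 was at 7.26 ± 0.285 RPKM in nTg and 5.77 ± 0.278 in MFN2-R94Q.

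**Figure D4:**
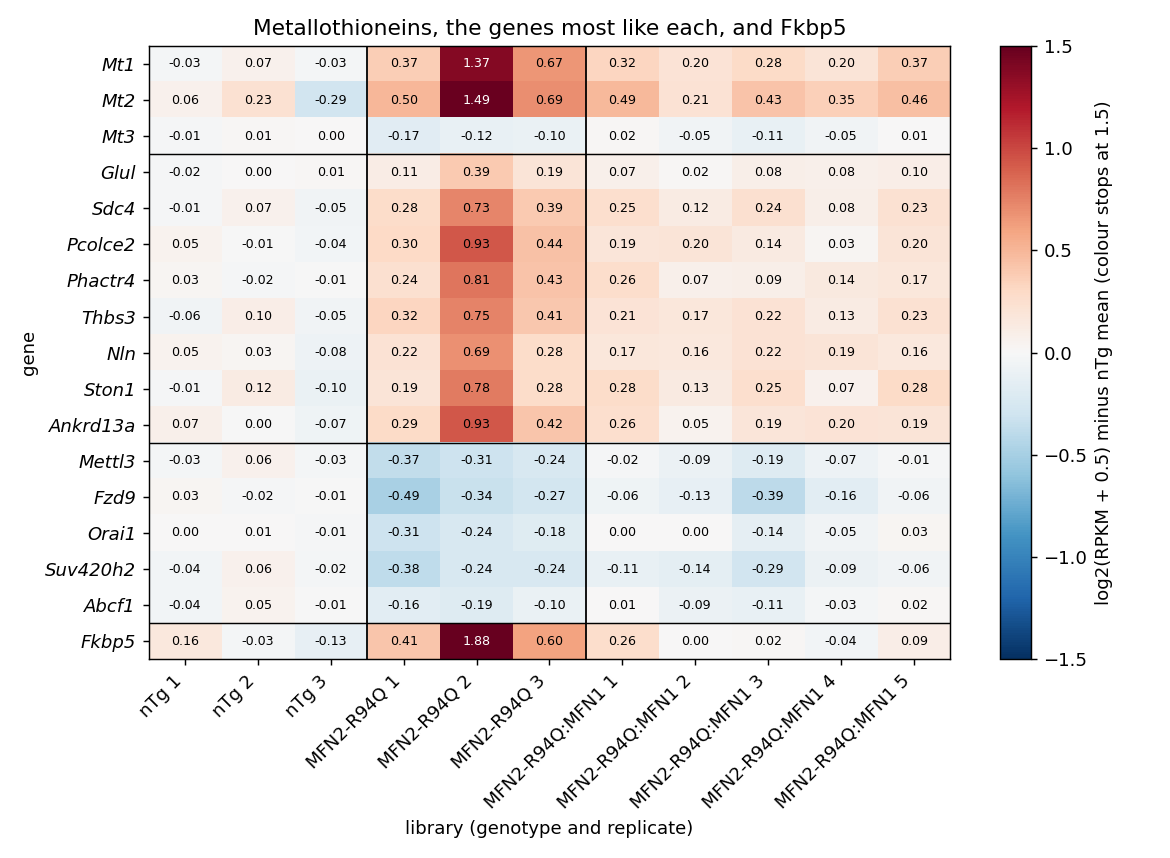
Heat map of log2(RPKM + 0.5) minus the nTg mean for Mt1, Mt2, Mt3, the genes most like each and the glucocorticoid-responsive Fkbp5 (rows) in the 11 libraries (columns); red is higher, blue lower, and the colour stops at 1.5. MFN2-R94Q replicate 2 has the highest values for Mt1 (1.37), Mt2 (1.49) and Fkbp5 (1.88).

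Genes that move or sense metals were followed beside Mt1 and Mt2. Over 8 pathway and neighbour lists, 20 of 86 tested genes passed in MFN2-R94Q against nTg, where 17.9% of all tested genes did (2561 of 14347, 7.5% higher and 10.4% lower). Without MFN2-R94Q replicate 2 the list count was 13 and that over all genes 1618, and without nTg replicate 2 they were 9 and 1213. Of the 8 tested zinc exporters of the Slc30 family, which carry zinc out of the cytosol, 1 rose in MFN2-R94Q against nTg and 0 fell, with a median log2 change of -0.01 (-0.0024 over all tested genes). The riser, Slc30a4, went from 6.27 ± 0.045 to 7.81 ± 0.093 RPKM (1.23-fold, adjusted p = 0.0023, limma), and stood at 6.83 ± 0.17 RPKM in MFN2-R94Q:MFN1. Of 12 tested Slc39 importers, 1 rose, Slc39a14, a carrier of zinc and iron (1.28-fold, adjusted p = 0.012, limma), and 1 fell, Slc39a3 (0.867, adjusted p = 0.023, limma).

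Mtf1 encodes the metal-responsive factor whose core motif was matched by letters above, and its action on those matches was not tested. Mtf1 was at 4.47 ± 0.23 RPKM in nTg, 4.85 ± 0.35 in MFN2-R94Q and 4.87 ± 0.20 in MFN2-R94Q:MFN1 (adjusted p = 0.24 for MFN2-R94Q against nTg, limma). Of the 7 tested genes in the list of Mtf1 and its described targets, 1 passed, Gclc (1.11-fold), a subunit of the enzyme that starts glutathione synthesis, and 0 passed without MFN2-R94Q replicate 2. Slc30a1, the zinc exporter best known as an MTF1 target and named here after its values were seen, was at 5.26 ± 0.28 RPKM in nTg, 5.18 ± 0.15 in MFN2-R94Q and 5.44 ± 0.59 in MFN2-R94Q:MFN1 (adjusted p = 0.90 for MFN2-R94Q against nTg, limma). The 95% interval of that ratio was 0.876 to 1.11.

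Of 11 copper-handling genes 2 rose and 2 fell, with a median of 0.01. Cp, the copper oxidase ceruloplasmin, rose 1.42-fold (adjusted p = 0.0031, limma), and Atp7b, a copper pump, rose 1.22-fold (adjusted p = 0.027, limma). Sco2 (0.716) and Cox17 (0.876), which deliver copper to cytochrome oxidase, fell. Without MFN2-R94Q replicate 2 the counts were 1 higher and 1 lower, and Atp7b no longer passed.

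The glucocorticoid list, chosen with earlier results of these data known, had the median farthest from 0 among the 8 lists. In MFN2-R94Q against nTg 5 of its 17 genes rose and 0 fell. The median was 0.73, and 0.36 without MFN2-R94Q replicate 2. Plin4, a lipid droplet protein, rose 7.47-fold, the sulfotransferase Sult1a1 3.27-fold, Hif3a 2.88-fold and Fkbp5, a co-chaperone of the receptor, 1.95-fold (adjusted p = 0.0031, 0.0033, 0.011 and 0.027, limma). In MFN2-R94Q:MFN1 against MFN2-R94Q 0 rose and 9 fell, where 9.55% of all tested genes rose and 3.33% fell. The median was -0.82 (0.01 over all tested genes), and in MFN2-R94Q:MFN1 against nTg 0 of the list passed. The glucocorticoid receptor gene Nr3c1 was at 11.1 ± 0.21, 10.4 ± 1.35 and 11.7 ± 0.27 RPKM in nTg, MFN2-R94Q and MFN2-R94Q:MFN1 (adjusted p = 0.30 for MFN2-R94Q against nTg, limma).

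Fkbp5 was at 8.54, 7.41 and 6.92 RPKM in nTg and at 10.3, 29.3 and 11.8 RPKM in MFN2-R94Q, highest in replicate 2. Nr3c1 was lowest in that library, at 8.86 RPKM. Without it Plin4 rose 4.51-fold, Sult1a1 2.40-fold, Hif3a 2.05-fold and Fkbp5 1.42-fold (adjusted p = 0.00055, 0.00046, 0.014 and 0.0071, limma). Of the 17 list genes 4 rose without that library, with a median of 0.36, and 5 fell in MFN2-R94Q:MFN1 against MFN2-R94Q. Without MFN2-R94Q replicate 1, 12 rose, and without nTg replicate 2 or 3, 3 rose. The 9 falls became 3, 5, 4 and 5 without MFN2-R94Q:MFN1 replicates 2, 3, 4 and 5. The list was chosen with earlier results of these data known, so its direction is no independent evidence, and its part in the levels of Mt1 and Mt2 was not tested.

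Of 11 genes of gp130 and STAT3 signalling, through which interleukin 6 and its relatives act, 2 rose and 0 fell (median 0.09): Osmr, the oncostatin M receptor, by 1.53-fold and Il6ra by 1.52-fold (adjusted p = 0.0046 and 0.0065, limma). Osmr was also higher in MFN2-R94Q:MFN1 than in nTg (1.43-fold, adjusted p = 0.014, limma), a call lost without nTg replicate 2 or 3. The gp130 and STAT3 counts in MFN2-R94Q against nTg became 2 higher and 1 lower without MFN2-R94Q replicate 2, with a median of 0.02. Of 16 genes of the Nrf2 response, 2 rose and 4 fell (median -0.09). The antioxidant enzyme Prdx6 (1.12-fold) and Gclc rose, and catalase (Cat, 0.875) and the cystine carrier Slc7a11 (0.734) were among those that fell. Without MFN2-R94Q replicate 2 the Nrf2 counts were 0 and 1, and after quantile normalization 2 and 1. None of the 7 tested neighbours of the cluster passed in any of the 3 comparisons (median 0.01 in MFN2-R94Q against nTg). Gnao1, the most abundant, was at 58.1 ± 3.36, 57.1 ± 2.85 and 58.7 ± 1.49 RPKM in nTg, MFN2-R94Q and MFN2-R94Q:MFN1.

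**Figure D5:**
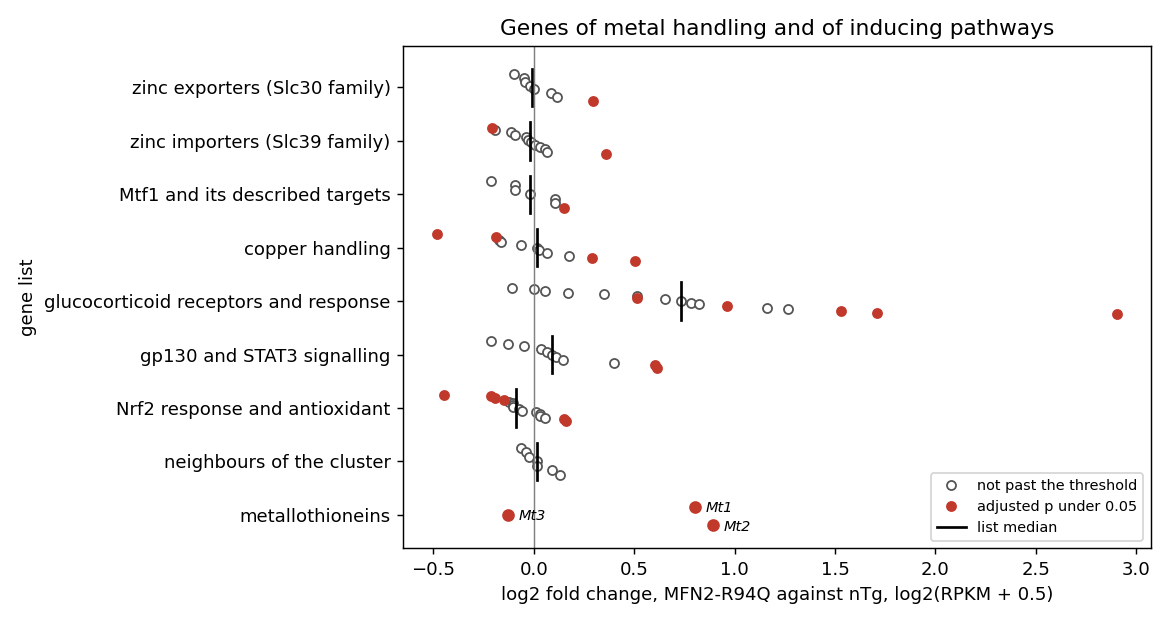
Log2 fold change in MFN2-R94Q against nTg on the log2(RPKM + 0.5) scale (horizontal axis) of each tested gene of 8 lists and of the metallothioneins (rows); filled points passed an adjusted p of 0.05 and bars mark list medians. The zinc, Mtf1 and copper lists centre near 0, and the glucocorticoid list, chosen with earlier results of these data known, at 0.73. Mt1, Mt2 and Mt3 lie at 0.80, 0.89 and -0.13.

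Markers of astrocytes, the cells best known for Mt1 and Mt2, moved in both directions. In MFN2-R94Q against nTg 4 of 16 rose and 3 fell (median 0.05), where 7.5% of all tested genes rose and 10.4% fell. Gfap, the intermediate filament of astrocytes, was at 274 ± 16.0 RPKM in nTg and 391.97 ± 28.8 in MFN2-R94Q (1.43-fold, adjusted p = 0.0010, limma). It was higher still in MFN2-R94Q:MFN1, at 465 ± 21.5 RPKM (1.19-fold over MFN2-R94Q, adjusted p = 0.012, limma), where Mt1 was lower than in MFN2-R94Q. Glul rose 1.17-fold in MFN2-R94Q, and the calcium-binding protein S100b (0.785) and Acsbg1 (0.894) fell. The summed level of the 16 markers was 2882 to 2970 RPKM in nTg, 2936 to 3173 in MFN2-R94Q and 3106 to 3258 in MFN2-R94Q:MFN1. After quantile normalization 6 rose and 2 fell, and without MFN2-R94Q replicate 2, 3 rose and 2 fell.

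Markers of other cell types moved as well. The 10 microglial markers summed to 211 to 224 RPKM in nTg, 225 to 242 in MFN2-R94Q and 305 to 350 in MFN2-R94Q:MFN1. From MFN2-R94Q to MFN2-R94Q:MFN1 10 of 10 rose, beside 9.55% of all tested genes. In MFN2-R94Q against nTg 5 of 10 endothelial, 2 of 8 ependymal, 5 of 10 oligodendrocyte, 3 of 10 neuronal and 4 of 6 motor neuron markers fell, while 1 oligodendrocyte and 1 neuronal marker rose. Of all tested genes 10.4% fell and 7.5% rose in that comparison. Of 10 microglial markers 1 rose and 1 fell, as did 1 each of 2 tested Schwann cell markers. When MFN2-R94Q replicate 2 was left out, the falls were 3 endothelial, 3 ependymal, 3 oligodendrocyte, 3 neuronal and 3 motor neuron markers, and 1 oligodendrocyte and 1 microglial marker rose. Of the Schwann cell markers 0 rose and 0 fell without that library. The 6 motor neuron markers summed to 90.2 to 93.1 RPKM in nTg, 77.1 to 83.9 in MFN2-R94Q and 85.7 to 92.5 in MFN2-R94Q:MFN1. Their RNA was thus present in every library. Pericyte, meningeal and blood markers had no call in that comparison, and no listed marker was at 0 in all libraries. The part of these cells in the metallothionein levels was not tested.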

How the data were processed

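Lumbar spinal cord RNA of 11 mice was analysed, 1 library per mouse as the design text counts them; the labels give no replicate numbers, so replicates are numbered in record order and pair nothing. The authors deposited RPKM values for 20888 gene symbols in 1 table, whose columns were matched to mice by title (columns not used: 0). Per the submitters' processing notes the tools were TopHat, without a version, and Partek 7.17.0918, and the build was mm10. The annotation, strand rule and rule for reads matching several genes were not given in the sources used here. RPKM divides by depth and length, so a gene's value also depends on the rest of its library; p-values rest on the spread between libraries.

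Depth was recovered from low values of 283 short RNA genes (under 160 bases in RefSeq). Of the 55 to 91 low values per library, 96.4% to 100% lay within 0.02 of whole reads. The depth was chosen in part by this share, so the share is no separate check of it. All 11 libraries entered 1 limma fit (limma 3.58.1, R 4.3.3, eBayes with a trend) of RPKM on the log2 scale after adding 0.5, limited to genes that reached 0.5 RPKM in 3 or more libraries. Tests were two-sided with Benjamini-Hochberg adjustment over 14347 genes and a threshold of 0.05. The fit was tested on simulated data in which each gene had the same spread in all groups. That test does not cover genes whose spread differs between groups, such as Mt1. Fold changes are on that scale, which understates those of weakly expressed genes, and ± gives SDs. Ratios were tested by exact permutation and correlations with 100000 permutations.

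The members and the gene lists were chosen with earlier results of these data known. Genes were named by rule: the 3 members, the 5 genes most correlated with each (mean of at least 1 RPKM), and up to 4 members of each list with the smallest p among those that passed in MFN2-R94Q against nTg. Where none passed, the list's most abundant gene was taken, and Mtf1, Nr3c1 and Mt4 were named in any case. Of the marker genes so chosen, those of astrocytes are described by name and the rest as counts. Promoters came from RefSeq tables on GRCm38.p6, matched by symbol (3 of 3), and gene positions from GENCODE M21. Alternatives changed the pseudocount (0.1 and 1), filter (none, 1 RPKM), scaling, groups in the fit, library weights and trend, and left out each library in turn.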

Additional observations from a re-analysis of the deposited data

Results flagged for a closer look

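Of 66 groups of 5 libraries examined with Dixon's gap test, 2 had a library far from the others, and chance marks about 1 in 20. In MFN2-R94Q:MFN1 the lowest library of the copper pump gene Atp7b was at 1.49 RPKM, with the other 4 from 1.61 RPKM upwards and a gap of 0.766 of the range. The highest library of the motor neuron marker Prph was at 39.0 RPKM in the same group, with the next at 36.6 RPKM and a gap of 0.908 of the range. None of Mt1, Mt2 and Mt3 was marked in that group. The groups of 3, among them the MFN2-R94Q libraries, were not examined with this test.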

How the results depend on the processing

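Over 20 alternatives no direction of Mt1, Mt2 or Mt3 reversed. The rises of Mt1 (log2 0.52 to 1.02) and Mt2 (0.60 to 1.09) in MFN2-R94Q against nTg each passed in 19, and Mt3 passed in 11. With only the 2 groups compared in the fit, Mt1 (0.80), Mt2 (0.89) and Mt3 (-0.13) no longer passed in that comparison, nor did Mt1 (-0.53) in MFN2-R94Q:MFN1 against MFN2-R94Q, while Mt1 (0.27) and Mt2 (0.39) passed in MFN2-R94Q:MFN1 against nTg. The counts of called genes in the first and last of these comparisons became 846 and 566, against 2561 and 332. Mt3 in MFN2-R94Q against nTg was also lost with no filter (-0.13), quantile normalization (-0.078) and no trend (-0.13). Mt1 in MFN2-R94Q:MFN1 against MFN2-R94Q was lost with no filter (-0.53) and no trend (-0.53). With no filter 1198 genes were called there, against 1848. Library weights, whose estimation stopped short of its tolerance, gave 3378, called Mt2 there (-0.32), and gave 590 calls in MFN2-R94Q:MFN1 against nTg. Apart from the fits of fewer groups or more genes, the cause was not tested.

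Leaving out 1 library at a time gave, in MFN2-R94Q against nTg, -0.14 to -0.11 for Mt3, which was lost without any nTg library or MFN2-R94Q replicate 1 or 2, and 1213 to 2857 calls. In MFN2-R94Q:MFN1 against MFN2-R94Q it gave -0.74 to -0.24 for Mt1, which was lost in 9 of 11 cases, and -0.70 to -0.21 for Mt2, which passed without MFN2-R94Q replicate 1. It gave 0.071 to 0.11 for Mt3, which passed without MFN2-R94Q:MFN1 replicate 3, and 882 to 2217 calls. In MFN2-R94Q:MFN1 against nTg it gave 0.25 to 0.31 for Mt1 and 0.24 to 0.50 for Mt2, which both passed without MFN2-R94Q replicate 2, and 189 to 589 calls. The log2 ratio of Mt3 to Mt1 and Mt2 differed by -1.17 to -0.69, 0.32 to 0.80 and -0.44 to -0.29 in the 3 comparisons in the order above, passing in none. The list genes past the threshold numbered 9 to 29. Of the values of single named genes under all alternatives, 3371 kept their side of the threshold, 250 lost it and 39 gained it. No paired analysis was possible because the labels give no replicate numbers. Reads from near-identical or overlapping genes cannot be told apart in these values, and groups of 3 mice limit the precision.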
